A study of Arabidopsis thaliana with 6 samples.

Results

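Transcripts of 9 genes that break down glucosinolates, or that steer the products of this breakdown, were followed by RNA-seq in Arabidopsis thaliana seedlings. The 9 genes were taken by their gene IDs from a table of 32548 genes, and all 9 passed the filter on low values. They are the myrosinases TGG1 (AT5G26000), TGG2 (AT5G25980), BGLU34 (AT1G47600, also called TGG4) and BGLU35 (AT1G51470, also called TGG5), the beta-glucosidases PEN2 (AT2G44490) and PYK10 (AT3G09260), and the specifier and modifier proteins ESP (AT1G54040), NSP1 (AT3G16400) and ESM1 (AT3G14210). The genes were picked by function when earlier results of the same comparisons were known, among them the lower level of TGG2 in hac1hac5, so their calls are given as a description of these genes and not as independent evidence. Seedlings were 12 days old, untreated and grown on MS medium at 22 °C with 16 h of light and 8 h of dark. The 3 genotypes, with 2 libraries each, were the wild type Col-0, plants homozygous for mutations in the histone acetyltransferase genes HAC1 and HAC5 (hac1-/-hac5-/-, here hac1hac5) and plants homozygous for mutations in the Mediator subunit genes MED8 and MED25 (med8-/-med25-/-, here med8med25). The mutant alleles are not named in the labels, and nothing in the labels ties the 2 libraries of a genotype to separate plants. The p-values therefore rest on the spread between these samples alone, which may be technical.

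Glucosinolates are sulphur-rich glucosides of the mustard family that are stored apart from the enzymes that split them. When tissue is crushed or attacked, a myrosinase removes the glucose, and the unstable remainder rearranges to a toxic isothiocyanate unless a specifier protein diverts it to a nitrile or epithionitrile. Classical myrosinases sit in the vacuoles of myrosin cells (TGG1, TGG2), in guard cells (at least TGG1) or in roots (BGLU34, BGLU35). PEN2 and PYK10 are called atypical myrosinases. All 6 belong to the same beta-glucosidase family, and the atypical enzymes keep a glutamate at the acid/base position of the active site where the classical ones have a glutamine.

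The sequence around the catalytic acid/base position separates these groups, and the coding stretch that spans it is shown for each of the 6 glycosidases so that the members can be told apart before their levels are compared. Sequences are from RefSeq TAIR10.1, 5′ to 3′, and capitals mark the codon of the acid/base position, a glutamine codon in the 4 classical myrosinases and a glutamate codon in PEN2 and PYK10.
TGG1: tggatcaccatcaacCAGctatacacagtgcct
TGG2: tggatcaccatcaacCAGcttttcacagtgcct
BGLU34: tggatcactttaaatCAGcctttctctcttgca
BGLU35: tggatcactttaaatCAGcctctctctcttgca
PEN2: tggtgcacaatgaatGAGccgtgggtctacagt
PYK10: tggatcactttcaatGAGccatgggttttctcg
Counted from the start codon as 1, the marked codon was number 205 in TGG1, 217 in TGG2, 211 in BGLU34 and BGLU35, 183 in PEN2 and 203 in PYK10. Over the whole coding sequence, BGLU34 and BGLU35 were 97.7% identical and TGG1 and TGG2 79.7%. PEN2 and PYK10 were 52.9% identical, and the other pairs among the 6 genes were 47.1% to 56.7% identical.

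The near-identity of BGLU34 and BGLU35 bears on how well their reads could be told apart. Of the 50-base windows within exons, 75% in BGLU34 and 76.7% in BGLU35 occurred once in the genome. The shares were 72.5% for NSP1, 75.1% for ESM1, 96.3% for ESP and 99.5% to 100% for the other 4 genes. How the authors treated reads with several matches is not given in the sources used here, so the split between BGLU34 and BGLU35, and the level of NSP1 and ESM1 against their close relatives, is uncertain to that extent. PYK10 overlaps AT3G09250 on the opposite strand, with 88.3% of its windows free of that gene, and reads of the overlap cannot be told apart without a stated strand setting. The other 8 genes overlap no annotated gene.

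Values are the authors' normalized counts, adjusted to a common library size, and the 2 libraries of a genotype are called its pair. Depth, recovered from these values, was 24.9 to 36.8 M reads per library, and across 16430 genes Pearson's r between the 2 libraries of each genotype was 0.9968 (Col-0), 0.9939 (hac1hac5) and 0.9879 (med8med25). As a check of the labels, MED8 was at 846.6 to 900.1 normalized counts in the 4 libraries of Col-0 and hac1hac5 and at 307.1 and 322.9 in med8med25. MED25 was at 1001 to 1236 in the same 4 libraries and at 253.8 and 302.4 in med8med25. HAC1 was at 2342 and 2875 in hac1hac5 against 3383 to 3529 in the other 4 libraries, and HAC5 at 800.7 and 1087 against 1131 to 1233; against Col-0 the decrease was called for HAC1 (log2 change -0.41, adjusted p = 0.011) and not for HAC5 (-0.38, adjusted p = 0.0503). The position of the mutations is not given in the labels, so reads from the rest of a mutated gene may be counted. Each comparison was tested with limma on log2(normalized count + 1) over 23898 genes, and a gene was called at a Benjamini-Hochberg adjusted p under 0.05. Of these genes 38.4% were called in hac1hac5 against Col-0, 26.6% in med8med25 against Col-0 and 41.4% in med8med25 against hac1hac5. The first 2 comparisons share the Col-0 libraries, so similar changes in both are not independent.

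Against Col-0, 7 of the 9 genes were called in each mutant. In hac1hac5, 6 of the 9 genes were lower and 1 was higher, where 21.0% of all genes were called lower and 17.4% higher. In med8med25, 5 were lower and 2 higher, where 14.3% of all genes were called lower and 12.3% higher. The median log2 change of the 9 genes was -0.92 in hac1hac5 and -1.01 in med8med25, and that of all genes tested was -0.02 and 0.00. In med8med25 against hac1hac5, 3 were higher, 3 lower and 3 not called, where 20.9% of all genes were called higher and 20.5% lower. TGG1, TGG2, ESP and ESM1 fell in both mutants. BGLU34 and BGLU35 fell in hac1hac5 and rose in med8med25, PEN2 rose in hac1hac5, and PYK10 fell in med8med25. Together the 9 genes took 0.686% and 0.725% of all normalized counts in the Col-0 libraries, 0.38% and 0.451% in hac1hac5 and 0.326% and 0.348% in med8med25.

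**Figure D1:**
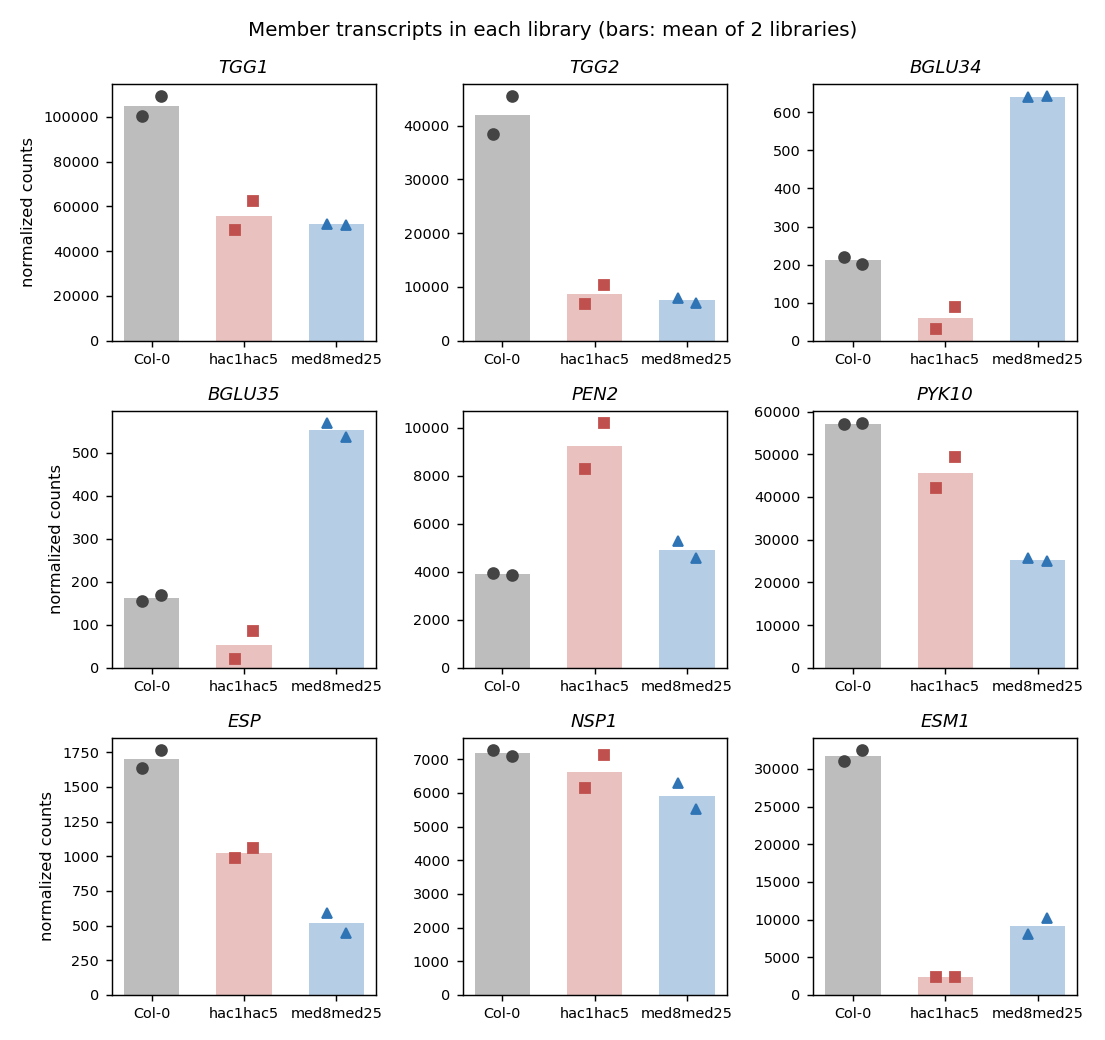
Normalized counts (vertical axes, each starting at 0) of the 9 genes in Col-0, hac1hac5 and med8med25; each symbol is 1 library and each bar the mean of 2 libraries. TGG1, TGG2, ESP and ESM1 lie lower in both mutants than in Col-0, and BGLU34 and BGLU35 lie lowest in hac1hac5 and highest in med8med25.

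TGG1, the most abundant myrosinase of the shoot, was at 100312 and 109354 normalized counts in the Col-0 pair, 49392 and 62275 in the hac1hac5 pair, and 52103 and 51683 in the med8med25 pair. Both mutants lay below both Col-0 libraries and overlapped each other. TGG1 fell 1.89-fold in hac1hac5 (log2 change -0.92, SE 0.15, adjusted p = 0.0019) and 2.02-fold in med8med25 (log2 change -1.01, SE 0.15, adjusted p = 0.0021). Both calls were lost without the second Col-0 library (log2 changes -0.85 and -0.95, adjusted p = 0.0526 and 0.0637), and over all alternatives the adjusted p ran from 1.5e-04 to 0.135 and from 1.5e-04 to 0.142.

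TGG2, also a myrosinase of myrosin cells, changed by more. It was at 38488 and 45528 in the Col-0 pair, 6814 and 10390 in the hac1hac5 pair, and 7968 and 6954 in the med8med25 pair. The Col-0 libraries were again apart from all 4 mutant libraries, which overlapped. TGG2 fell 4.97-fold in hac1hac5 (log2 change -2.31, SE 0.18, adjusted p = 4.0e-05) and 5.62-fold in med8med25 (log2 change -2.49, SE 0.18, adjusted p = 7.1e-05). The direct comparison of the mutants called neither gene, with a log2 change of -0.10 for TGG1 (95% interval -0.44 to 0.25) and -0.18 for TGG2 (95% interval -0.60 to 0.25).

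Because TGG2 dropped further than TGG1, the balance of the pair shifted. Per kb of exon, the TGG1 level was 2.71 and 2.50 times that of TGG2 in the Col-0 libraries. The ratio was 7.54 and 6.24 in hac1hac5 and 6.81 and 7.74 in med8med25, so that every mutant library lay above both Col-0 libraries. Ratios between genes are given as a description and were not tested.

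TGG1 and TGG2 lie close together on chromosome 5 (TAIR10.1), TGG2 at chr5:9072708-9075777 on the plus strand and TGG1 at chr5:9079452-9082384 on the minus strand, with 3674 bases and 2 annotated genes between them. BGLU34 lies at chr1:17491731-17494779 and BGLU35 at chr1:19087384-19090523, both on the plus strand. For each pair, the 300 bases before each annotated gene start are shown, with the longest run of bases common to the pair in capitals.
TGG1 (chr5:9082385-9082684, minus strand): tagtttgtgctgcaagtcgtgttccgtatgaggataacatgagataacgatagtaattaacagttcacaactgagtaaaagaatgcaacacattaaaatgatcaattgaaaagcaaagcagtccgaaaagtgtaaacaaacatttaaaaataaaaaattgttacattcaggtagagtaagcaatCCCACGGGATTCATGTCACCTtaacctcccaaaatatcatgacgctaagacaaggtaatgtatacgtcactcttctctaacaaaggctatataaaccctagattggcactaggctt
TGG2 (chr5:9072408-9072707, plus strand): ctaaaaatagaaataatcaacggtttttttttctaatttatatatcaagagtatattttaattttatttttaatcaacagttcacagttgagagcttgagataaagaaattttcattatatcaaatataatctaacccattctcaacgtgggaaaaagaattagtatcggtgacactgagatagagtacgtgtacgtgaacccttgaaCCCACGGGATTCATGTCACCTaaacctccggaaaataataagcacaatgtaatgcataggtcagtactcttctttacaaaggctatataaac
BGLU34 (chr1:17491431-17491730, plus strand): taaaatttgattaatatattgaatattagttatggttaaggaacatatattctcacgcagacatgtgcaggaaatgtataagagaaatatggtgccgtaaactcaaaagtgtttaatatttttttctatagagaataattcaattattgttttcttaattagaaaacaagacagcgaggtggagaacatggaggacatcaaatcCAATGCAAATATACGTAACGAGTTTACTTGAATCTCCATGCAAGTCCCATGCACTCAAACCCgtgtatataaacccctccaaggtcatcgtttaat
BGLU35 (chr1:19087084-19087383, plus strand): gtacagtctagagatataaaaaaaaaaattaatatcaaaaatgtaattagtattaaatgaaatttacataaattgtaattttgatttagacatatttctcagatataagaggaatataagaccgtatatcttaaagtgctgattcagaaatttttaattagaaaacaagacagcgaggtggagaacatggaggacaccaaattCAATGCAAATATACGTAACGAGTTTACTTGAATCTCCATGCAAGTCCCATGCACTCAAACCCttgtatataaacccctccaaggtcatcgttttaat
The shared run was 21 bases in the TGG1 and TGG2 windows, starting 116 and 92 bases before the gene start, and 62 bases in the BGLU34 and BGLU35 windows, starting 96 and 97 bases before it. Aligned end to end, the windows were 54.9% identical for TGG1 and TGG2 and 67.3% for BGLU34 and BGLU35. Whether the shared bases bear on the levels of the genes was not tested.

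Short motifs were searched on both strands in the 300-base windows of all 9 genes. The G-box CACGTG, which many bHLH and bZIP factors bind, was in 0 of the 9 windows and in 7.09% of 27443 windows of protein-coding genes. The wider E-box CANNTG, which includes the G-box, was in 6 of 9 (TGG1, TGG2, BGLU34, ESP, NSP1 and ESM1) and in 61.9% of all windows. TTGAC, the core of the W-box bound by WRKY factors, was in 4 of 9 (PEN2, PYK10, ESP and NSP1) and in 50.4% of all windows. These matches describe letters in a window and not binding.

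Guard cells are one of the places where TGG1 is made, and most guard cell markers called against Col-0 were lower too. Of all genes tested, 21.0% were called lower in hac1hac5 and 14.3% in med8med25. Of 12 guard cell and stomatal lineage markers, all of them detected, 8 were lower and 0 higher in hac1hac5 (median log2 change -0.85), and 6 were lower and 1 higher in med8med25 (median -0.85). The highest and lowest changes in hac1hac5 were -0.06 and -2.33, and those in med8med25 were 0.82 and -1.27. Between the mutants, where neither TGG1 nor TGG2 was called, 5 of these markers were higher and 2 lower in med8med25 (median 0.20). In that comparison 20.9% of all genes were called higher and 20.5% lower. Their summed level was 6275 and 6684 normalized counts in the Col-0 pair, 2744 and 2815 in the hac1hac5 pair, and 3764 and 4219 in the med8med25 pair. The largest part of this sum in every library was KAT1, at 3192 and 3516 in the Col-0 pair. KAT1 was at 801.3 and 885.6 in the hac1hac5 pair and 1260 and 1540 in the med8med25 pair. The sum therefore does not weigh the 12 markers equally. FAMA, a bHLH factor required for both guard cells and myrosin cells, fell from 747.0 and 798.3 in Col-0 to 224.1 and 305.0 in hac1hac5 (log2 change -1.56, adjusted p = 7.7e-05) and to 460.3 and 474.9 in med8med25 (log2 change -0.72, adjusted p = 0.0071). Green tissue markers were lower as well, 5 of 10 in hac1hac5 and 6 of 10 in med8med25, with 0 higher in either; their summed level was 1957150 and 2012570 in the Col-0 pair, 1302070 and 1333660 in the hac1hac5 pair, and 1473030 and 1207470 in the med8med25 pair. The guard cell and green tissue marker counts were not repeated under another scaling or filter or with a library left out. The part of these cell types in the TGG1 and TGG2 values was not tested, and in whole seedlings fewer cells of a type and less RNA per cell cannot be told apart.

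BGLU34, a root myrosinase, was at 219 and 202 normalized counts in the Col-0 pair, 30.7 and 87.6 in the hac1hac5 pair, and 639.8 and 643.7 in the med8med25 pair. The 3 genotypes did not overlap, but the hac1hac5 libraries differed widely from each other. BGLU34 fell 3.99-fold in hac1hac5 (log2 change -2.0, SE 0.38, adjusted p = 0.0041) and rose 3.04-fold in med8med25 (log2 change 1.60, SE 0.38, adjusted p = 0.017).

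BGLU35, its close copy, was at 155 and 169 in the Col-0 pair, 19.7 and 85.3 in the hac1hac5 pair, and 569 and 536 in the med8med25 pair. The order of the genotypes was that of BGLU34, again with no overlap. BGLU35 fell 3.85-fold in hac1hac5 (log2 change -1.94, SE 0.52, adjusted p = 0.019) and rose 3.40-fold in med8med25 (log2 change 1.76, SE 0.52, adjusted p = 0.039). Between the mutants, med8med25 was higher by 3.60 on the log2 scale for BGLU34 (12.1-fold, adjusted p = 2.4e-04) and by 3.71 for BGLU35 (13.1-fold, adjusted p = 8.9e-04).

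BGLU34 and BGLU35 had the lowest levels of the 9 genes in Col-0 and hac1hac5, and their spread in hac1hac5 was wider than counting error. BGLU35 rested on 23 reads (exact 95% Poisson interval 14.6 to 34.5) in the first hac1hac5 library and 97 (78.7 to 118) in the second. For BGLU34 these were 35 reads (24.4 to 48.7) and 100 (81.4 to 122). Without the first hac1hac5 library the log2 change against Col-0 was -1.26 for BGLU34 and -0.92 for BGLU35, and without the second it was -2.74 and -2.97. The SE is shared by the 3 genotypes, so the wide hac1hac5 spread also enters the SE of the med8med25 change. Over all 16 alternatives the log2 change in med8med25 against Col-0 was 1.54 to 1.76 for BGLU34 and 1.70 to 1.93 for BGLU35. The hac1hac5 call was lost without the first Col-0 library for BGLU34 (log2 change -1.94) and without either of them for BGLU35 (-2.01 and -1.88), and both med8med25 calls were lost without any 1 of the 4 libraries compared, at log2 changes of 1.54 to 1.66 for BGLU34 and 1.70 to 1.83 for BGLU35. The difference between the mutants was called without each library in turn, at 2.68 to 4.74 for BGLU35 and 2.86 to 4.34 for BGLU34, but that of BGLU35 was lost with no filter on low values (adjusted p = 0.0523).

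Of the root markers called between the mutants, most differed in the same direction as BGLU34 and BGLU35. Of all genes tested, 12.3% were called higher and 14.3% lower in med8med25 against Col-0, and 17.4% and 21.0% in hac1hac5. Of 13 root markers, all detected, 5 were higher and 2 lower in med8med25 against Col-0 (median log2 change 0.17), and 1 was higher and 2 lower in hac1hac5 (median -0.06). In med8med25 against hac1hac5, 7 were higher and 1 lower, where 20.9% of all genes were called higher and 20.5% lower. In med8med25 against Col-0 the 5 higher were SCR and CASP1 to CASP4, and the 2 lower were ESB1 (-1.44) and WOX5 (-1.81). COBL9, EXPA7, PLT1 and PLT2 were among those not called, and changes over the list ran from -1.81 to 1.23. The summed level was 4583 and 4421 normalized counts in the Col-0 pair, 4306 and 4319 in the hac1hac5 pair, and 6551 and 6203 in the med8med25 pair. The root marker counts were not repeated under another scaling or filter or with a library left out. The part of root markers in the BGLU34 and BGLU35 values was not tested.

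**Figure D2:**
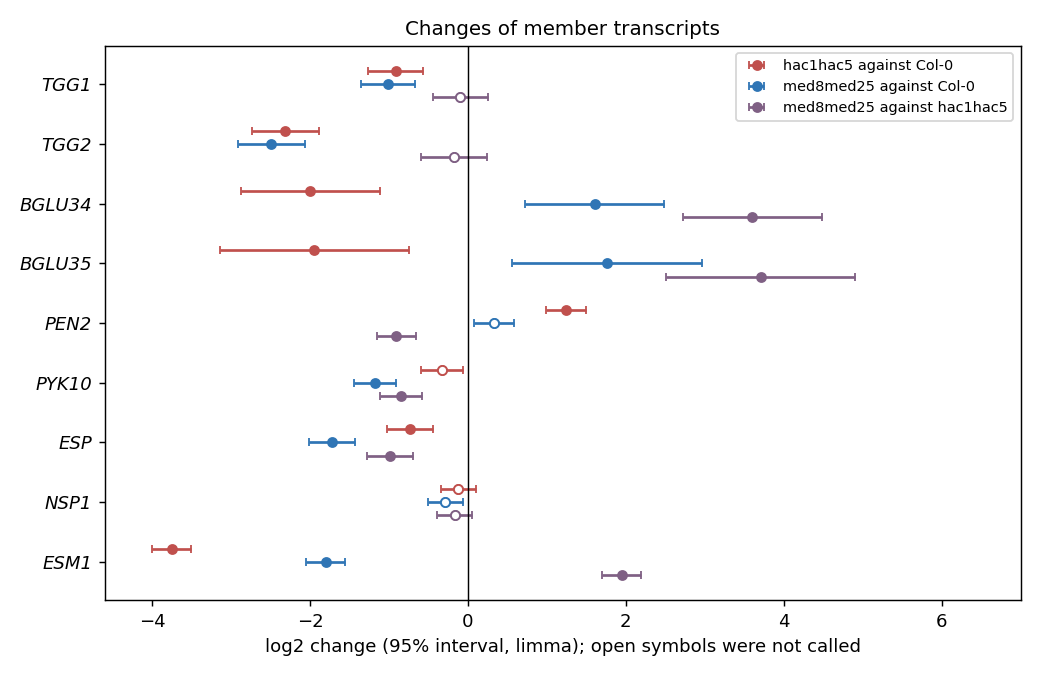
Log2 changes of the 9 genes (horizontal axis) with 95% intervals from the limma fit for hac1hac5 against Col-0, med8med25 against Col-0 and med8med25 against hac1hac5; filled symbols were called and open symbols were not. BGLU34 and BGLU35 lie on opposite sides of 0 in the mutants, and the largest change is the decrease of ESM1 in hac1hac5 at -3.75.

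PEN2 hydrolyses indole glucosinolates in living cells at sites of attempted fungal entry. It was at 3963 and 3845 normalized counts in the Col-0 pair, 8302 and 10203 in the hac1hac5 pair, and 5265 and 4586 in the med8med25 pair. Both hac1hac5 libraries lay above all others. PEN2 rose 2.36-fold in hac1hac5 (log2 change 1.24, SE 0.11, adjusted p = 7.2e-05) and was not called in med8med25 (log2 change 0.33, 95% interval 0.08 to 0.58, adjusted p = 0.057), although both libraries there were above Col-0. It was called in med8med25 with total-count scaling (0.49), with limma voom (0.49), with voom on recovered reads (0.33) and without the second med8med25 library (0.43), and over all alternatives the adjusted p ran from 0.0033 to 0.283. Directly compared, med8med25 was lower than hac1hac5 by 1.87-fold (log2 change -0.91, adjusted p = 4.4e-04).

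Of 8 genes listed with PEN2, here called PEN2 pathway genes, all were higher in hac1hac5 (8 of 8, median log2 change 1.82). Of all genes tested, 17.4% were called higher there. The list is broader than the pathway itself, as it also holds PEN1 and GGP1. CYP81F2, a monooxygenase that modifies indole glucosinolates for this pathway, was at 76.4 and 76.2 in the Col-0 pair, 564.5 and 700 in the hac1hac5 pair, and 80.0 and 27.6 in the med8med25 pair. Its log2 change in hac1hac5 was 3.03 (adjusted p = 6.0e-04), the highest of the list, and the lowest was that of the glutathione transferase gene GSTU13 (0.81, adjusted p = 2.7e-04). PEN3, the transporter that acts with PEN2, rose from 8510 and 8914 to 28649 and 34655 (log2 change 1.85, adjusted p = 2.4e-04). In med8med25 against Col-0, 1 of the 8 was higher, GSTU13 (0.34, adjusted p = 0.029), and 0 were lower (median 0.19). Total-count scaling and voom each called 4 there, no filter on low values called 0, and the count was 0 without any 1 Col-0 or hac1hac5 library, 2 without the first med8med25 library and 4 without the second. All 8 were lower in med8med25 than in hac1hac5 (median -1.53), from CYP81F2 (-3.71, adjusted p = 2.5e-04) to GSTU13 (-0.47, adjusted p = 0.0043). In that comparison 20.5% of all genes were called lower.

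PYK10, the main beta-glucosidase of ER bodies in roots and hypocotyls, was at 57038 and 57306 normalized counts in the Col-0 pair, 42167 and 49239 in the hac1hac5 pair, and 25685 and 24884 in the med8med25 pair. The 3 genotypes did not overlap. PYK10 fell 2.26-fold in med8med25 (log2 change -1.18, SE 0.12, adjusted p = 3.1e-04). In hac1hac5 its log2 change was -0.33 (95% interval -0.60 to -0.06), which was not called (adjusted p = 0.057). That change was called under 6 of 16 alternatives, with adjusted p from 0.0246 to 0.272, and it was -0.15 at the smallest. PYK10 was lower in med8med25 than in hac1hac5 by 1.80-fold (log2 change -0.85, adjusted p = 8.1e-04).

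Genes of the ER body and of the PYK10 complex did not share one direction. Of all genes tested, 17.4% were called higher and 21.0% lower in hac1hac5, and 12.3% and 14.3% in med8med25. Of the 15 tested here, 4 rose and 3 fell in hac1hac5 (median log2 change -0.10), and 0 rose and 4 fell in med8med25 (median -0.12). These splits depended on the scaling: total-count scaling and voom each called 5 higher and 2 lower in hac1hac5 and 3 higher and 3 lower in med8med25, and median-of-ratios scaling called 2 higher and 4 lower in med8med25. NAI1, the bHLH factor required for ER bodies and for PYK10 expression, was at 374.9 and 408.7 in the Col-0 pair, 627.8 and 745.5 in the hac1hac5 pair, and 332.7 and 314.3 in the med8med25 pair. It rose in hac1hac5 (log2 change 0.80, adjusted p = 7.8e-04), where PYK10 did not. The extremes in hac1hac5 were MEB2, an ER body membrane protein (1.04, adjusted p = 9.7e-04), and the jacalin-related lectin gene JAL22 (-0.89, adjusted p = 2.9e-04). In med8med25 the largest decrease was that of the lectin gene JAL33 (-1.23, adjusted p = 3.2e-04) and the smallest called one that of JAL35 (-0.27, adjusted p = 0.017), while NAI2, which builds ER bodies, was at a log2 change of -0.04 (adjusted p = 0.82). Between the mutants, 3 were higher and 6 lower in med8med25, from GLL23 (0.97, adjusted p = 7.7e-05) to NAI1 (-1.08, adjusted p = 2.0e-04). In that comparison 20.9% of all genes were called higher and 20.5% lower. The number called in hac1hac5 was 4 when the first Col-0 library was left out, and in med8med25 it was 2 when either was.

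Of 16 other myrosinase and beta-glucosidase genes, 12 passed the filter on low values. In hac1hac5, 3 rose and 1 fell (median log2 change 0.18), where 17.4% of all genes were called higher and 21.0% lower. BGLU30, a gene induced in the dark, had the highest change of those called (57.2 and 35.7 in Col-0 against 137 and 86.0, log2 change 1.25, adjusted p = 0.029) and BGLU33 was the one that fell (-0.77, adjusted p = 0.0022). In med8med25, 1 rose and 4 fell (median -0.67), where 12.3% of all genes were called higher and 14.3% lower. BGLU24 fell there from 64.8 and 52.7 to 15.7 and 13.1 (log2 change -1.95, adjusted p = 7.8e-04), whereas in hac1hac5 it rose to 114 and 143 (1.12, adjusted p = 0.0065). BGLU22, a beta-glucosidase of the PYK10 complex, rose in both mutants (0.78 in hac1hac5, adjusted p = 1.0e-04, and 0.36 in med8med25, adjusted p = 0.0087). BGLU21 was not called in hac1hac5 (0.10, adjusted p = 0.40) and fell in med8med25 (-0.46, adjusted p = 0.0069). BGLU18, an ER body enzyme of leaves, fell from 8527 and 9434 to 4715 and 4817 (-0.91, adjusted p = 1.4e-04), and in hac1hac5 it was at 8111 and 8363 (-0.12, adjusted p = 0.25). Between the mutants, 0 were higher and 5 lower in med8med25, from BGLU24 (-3.07, adjusted p = 4.8e-05) to BGLU22 (-0.42, adjusted p = 0.0027). In that comparison 20.9% of all genes were called higher and 20.5% lower. The count for hac1hac5 was 2 when the second library of Col-0 or of hac1hac5 was left out, and that for med8med25 was 3 when either Col-0 library was left out.

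ESP, which diverts the reaction to epithionitriles and nitriles and is known for low activity in Col-0, was at 1634 and 1764 normalized counts in the Col-0 pair, 983.7 and 1062 in the hac1hac5 pair, and 591 and 447 in the med8med25 pair. The 3 genotypes formed separate steps. ESP fell 1.66-fold in hac1hac5 (log2 change -0.73, SE 0.13, adjusted p = 0.0024) and 3.30-fold in med8med25 (log2 change -1.72, SE 0.13, adjusted p = 6.9e-05), and the mutants differed by -0.99 on the log2 scale (adjusted p = 5.7e-04). The hac1hac5 call was lost without the first hac1hac5 library (-0.68, adjusted p = 0.0559), and over all alternatives the adjusted p ran from 2.5e-04 to 0.0606.

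NSP1, which directs the reaction to simple nitriles, was at 7272 and 7110 in the Col-0 pair, 6140 and 7138 in the hac1hac5 pair, and 6284 and 5533 in the med8med25 pair. It was not called in hac1hac5 (log2 change -0.12, 95% interval -0.34 to 0.10) or med8med25 (log2 change -0.29, 95% interval -0.51 to -0.06, adjusted p = 0.061), nor between the mutants (-0.17, 95% interval -0.39 to 0.06). Its change in med8med25 was called without the first med8med25 library (-0.38, adjusted p = 0.0324), over a range of 0.0324 to 0.285. Per kb of exon, NSP1 was 4.01 and 3.63 times as abundant as ESP in the Col-0 libraries, 5.62 and 6.06 times in hac1hac5, and 9.58 and 11.2 times in med8med25. That balance rose in steps without overlap from Col-0 to hac1hac5 to med8med25.

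**Figure D3:**
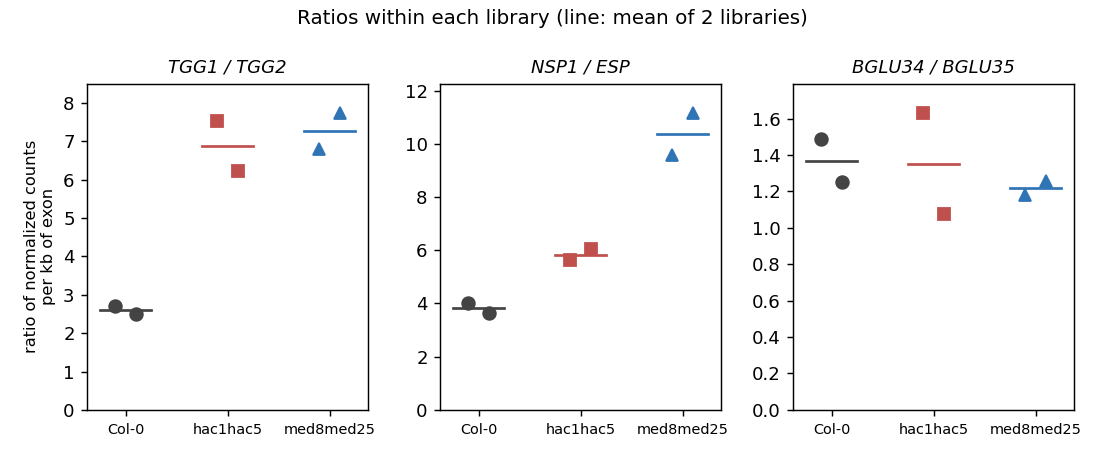
Ratio of normalized counts per kb of exon (vertical axes, each starting at 0) for TGG1 to TGG2, NSP1 to ESP and BGLU34 to BGLU35 in the 3 genotypes; each symbol is 1 library and each line the mean of 2. The first ratio is 2.50 and 2.71 in Col-0 and 6.24 to 7.74 in the mutants, the second is lowest in Col-0 and highest in med8med25, and the third overlaps between the genotypes at 1.08 to 1.63.

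ESM1, a lipase-like protein that restrains nitrile formation and so favours isothiocyanates, showed the largest change of the 9 genes. It was at 31034 and 32492 normalized counts in the Col-0 pair, 2319 and 2399 in the hac1hac5 pair, and 8130 and 10210 in the med8med25 pair. The 3 genotypes were far apart, with hac1hac5 lowest. ESM1 fell 13.5-fold in hac1hac5 (log2 change -3.75, SE 0.11, adjusted p = 2.9e-07) and 3.48-fold in med8med25 (log2 change -1.80, SE 0.11, adjusted p = 2.8e-05). The mutants differed by 1.95 on the log2 scale (3.86-fold, 95% interval 1.70 to 2.20, adjusted p = 1.1e-05). Each of these 3 calls held under all 16 alternatives. Per kb of exon, ESM1 was 18.1 and 17.5 times as abundant as ESP in Col-0, 2.24 and 2.15 times in hac1hac5, and 13.1 and 21.7 times in med8med25, so on this measure hac1hac5 alone stood apart from Col-0.

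Of 8 other specifier protein and nitrilase genes, 1 rose and 3 fell in hac1hac5 (median log2 change -0.23), and 2 rose and 3 fell in med8med25 (median -0.18). Of all genes tested, 17.4% were called higher and 21.0% lower in hac1hac5, and 12.3% and 14.3% in med8med25. NIT1, a nitrilase that converts nitriles to acids, fell from 29054 and 30604 in Col-0 to 17293 and 15780 in hac1hac5 (log2 change -0.85, adjusted p = 2.8e-04) and to 24678 and 22887 in med8med25 (-0.33, adjusted p = 0.040). The nitrile specifier gene NSP2 had the lowest change in hac1hac5 (10.6 and 21.3 against 3.6 and 5.2, log2 change -1.59, adjusted p = 0.022) and NIT3 the highest (0.68, adjusted p = 0.0012). In med8med25 the specifier gene NSP4 rose from 293.8 and 312.2 to 512.9 and 514.2 (0.76, adjusted p = 0.0014), and NIT2 fell (-1.03, adjusted p = 0.014). The same 2 genes had the highest and lowest called change between the mutants (0.89, adjusted p = 3.6e-04, and -0.96, adjusted p = 0.011), where 3 were higher and 2 lower in med8med25. In that comparison 20.9% of all genes were called higher and 20.5% lower. The count for med8med25 was 1 when either Col-0 library was left out and 3 when either hac1hac5 library was.

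In the list of myrosin cell and glucosinolate transport genes, 7 of 8 passed the filter. Of these, 1 rose and 2 fell in hac1hac5 (median log2 change 0.07), where 17.4% of all genes were called higher and 21.0% lower. In med8med25, 2 rose and 1 fell (median 0.00), where 12.3% of all genes were called higher and 14.3% lower. Of this list, total-count scaling called 2 higher and 1 lower in hac1hac5, and voom 3 higher and 1 lower. FAMA, given above, had the lowest change in both. GTR1, an importer that loads glucosinolates into the phloem, had the highest change in both, from 770.2 and 862.6 in Col-0 to 1790 and 2245 in hac1hac5 (1.30, adjusted p = 2.3e-04) and to 1581 and 1223 in med8med25 (0.77, adjusted p = 0.0059). Between the mutants, 3 were higher and 1 lower in med8med25, with FAMA the highest (0.84, adjusted p = 0.0021) and GTR1 the lowest (-0.53, adjusted p = 0.019); this count of 4 called was 2 with total-count scaling, 1 when either Col-0 library was left out and 2 when the second hac1hac5 or the second med8med25 library was. For comparison, 20.9% of all genes were called higher and 20.5% lower between the mutants. SCRM, the partner of FAMA, was at log2 changes of -0.02 in hac1hac5 and -0.17 in med8med25, neither called. The count for med8med25 fell to 1 when the first Col-0 library was left out and to 0 when the second was.

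**Figure D4:**
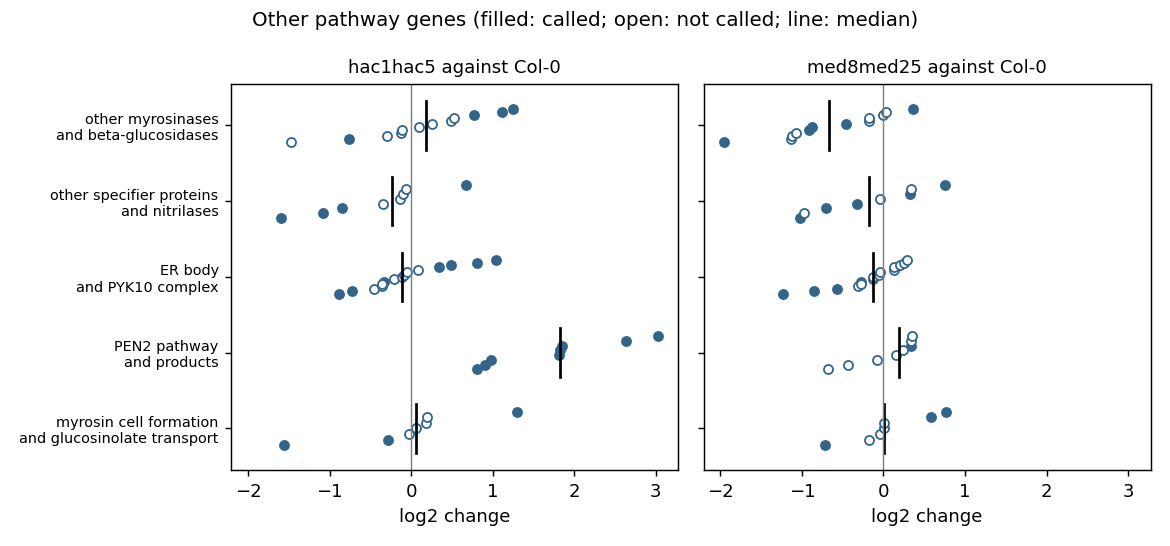
Log2 changes (horizontal axes, common scale) of the tested genes in 5 lists for hac1hac5 and med8med25 against Col-0; each circle is 1 gene, filled where called, and the line is the median of the list. All 8 PEN2 pathway genes lie above 0 in hac1hac5, with a median of 1.82, and lie around 0 in med8med25, with a median of 0.19.

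On the scale of normalized counts per kb of exon, the order of levels in Col-0 was TGG1 (55379 ± 3378, SD, n = 2), PYK10 (31657 ± 105), TGG2 (21324 ± 2527), ESM1 (16280 ± 528), NSP1 (3489 ± 55.5), PEN2 (1756 ± 37.3), ESP (915 ± 49.5), BGLU34 (119 ± 7.03) and BGLU35 (87.5 ± 5.68). No neighbours in this order overlapped between their libraries. In hac1hac5, TGG1 (26092 and 32898) and PYK10 (23348 and 27264) overlapped, as did PEN2 (3735 and 4590) with TGG2 (3459 and 5274), TGG2 with NSP1 (2979 and 3463), and BGLU34 with BGLU35, and ESM1 (1189 and 1230) ranked below PEN2, TGG2 and NSP1. In med8med25, ESP (318 and 241) was the lowest by its mean and overlapped BGLU35 (307 and 289), while BGLU34 (362 and 365) lay above both.

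Among 16421 other genes with a mean of at least 100 normalized counts, the gene whose log2 levels followed each member most closely over the 6 libraries was PIF4 for TGG1 (Pearson r = 0.998), AT1G02380 for TGG2 (0.998), AT1G69523 for BGLU34 (0.999), PRR1 for BGLU35 (0.996), AT5G66675 for PEN2 (1.000), GRP9 for PYK10 (0.999), COR314-TM2 for ESP (0.998), TON1A for NSP1 (0.994) and AT5G02760 for ESM1 (0.998). These values rest mainly on differences between 3 genotypes and are a description. Pearson's r does not reflect the size of a change. AT1G69523 ran from 323 to 404 normalized counts over the 6 libraries, where BGLU34 ran from 30.7 to 643.7. Between 2 genes, for NSP1, and 122 genes, for PEN2, had r over 0.99. The symbol PRR1 stands here for the gene AT1G32100. ESM1 and AT5G02760 had the same order of genotypes, the latter at 19848 and 20085 normalized counts in the Col-0 pair, 910.6 and 987.1 in the hac1hac5 pair, and 3812 and 6241 in the med8med25 pair.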

How the data were processed

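Single-end reads of 50 bases were made from total RNA of whole seedlings, per the labels' protocols. HISAT2, featureCounts and edgeR, with build TAIR10, are named in the submitters' processing notes; versions, annotation, strand setting and the treatment of reads with several matches are not given in the sources used here. Per gene and library, the authors deposited a normalized signal, not whole counts, with totals of 30.3 to 35.5 M. All 195288 values were matched within a relative difference of 1e-06 by a quantile adjustment of whole reads to a common effective library of 32.6 M (dispersion 0.00697). The recovered reads gave the depth; intervals on them cover counting error only, as no molecular identifiers tell PCR copies from separate molecules.

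Limma 3.58.1 (R 4.3.3, trend) was run on log2(value + 1) for the 23898 genes that reached 1 in 2 or more libraries. Genotype was the sole factor, with 3 residual and 5.28 prior degrees of freedom. This scale understates the change of weak genes. The fit was also run on simulated counts. These had the same dispersion for every gene, so they cannot show how the fit handles genes of wide spread. Members, lists and tests were chosen with earlier results of these data known. Named are all members and the gene most like each member. In each of the 5 pathway lists and each comparison, the called gene with the highest and the lowest change is named. Marker lists are given by counts and extremes, with gene names only for root markers in med8med25 against Col-0 and for KAT1. Those root markers, and KAT1, PEN1, PEN3, GGP1, NAI1, NAI2, BGLU18, BGLU21, NIT1 and SCRM, were named after their values were seen. Sequences and exon lengths are from RefSeq TAIR10.1, which matched all 9 IDs; the files hold no coordinates. GTR3 is NRT1.9 there, and GLL23 and WSCP were matched by ID. Alternatives changed the pseudocount, filter, scaling, test, libraries and replicate block. Voom on recovered reads was chosen after seeing the data. Counts for the guard cell, root and green tissue marker lists were not repeated under these alternatives.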

Additional observations from a re-analysis of the deposited data

How the results depend on the processing

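Over 16 alternatives, 394 of 432 member log2 changes kept direction and side of the threshold, 23 lost the call, 11 gained it and 4 turned sign without being called. The sign turned for NSP1 in hac1hac5 with total-count scaling and voom (both 0.061), and for TGG1 and TGG2 between the mutants without the second hac1hac5 library (ranges over left-out libraries -0.26 to 0.071 and -0.48 to 0.13). Total-count scaling moved the median log2 change of all genes from -0.02 to 0.16 in hac1hac5 and from 0.00 to 0.15 in med8med25, and the share of higher among called genes from 45.3% to 67.7% and from 46.1% to 72.6%. No filter on low values called 3 members in hac1hac5 and 4 in med8med25, ending the Col-0 calls of TGG1, BGLU34 and BGLU35 in both and of ESP in hac1hac5; its counts over all genes were 3158 (against 6350) in med8med25 and 6555 (against 9887) between the mutants, and the cause was not tested. It called 2 other beta-glucosidases in hac1hac5 and 3 in med8med25, 2 specifier and nitrilase genes, 0 PEN2 pathway and 0 myrosin cell genes in med8med25, and 5 and 1 of the last 2 lists between the mutants. With only the 4 libraries compared, 3 specifier and 0 PEN2 pathway genes were called in med8med25 and 1 myrosin cell gene between the mutants; total-count scaling called 4 PEN2 pathway genes in med8med25 and 2 myrosin cell genes between the mutants, and voom 4 PEN2 pathway genes. A pseudocount of 0.1 ended the call of BGLU35 in med8med25 (1.77).

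Leaving out 1 library leaves its genotype with 1, assumed to vary like the others. Counts over all genes then ran from 4594 to 10469 in hac1hac5 (9166 with all; lowest without any Col-0 or hac1hac5 library, 4594 to 5856), 1911 to 6544 in med8med25 (1911 and 2045 without a Col-0 library) and 5983 to 9674 between the mutants (5983 and 6205 without a hac1hac5 library). Lowest and highest counts were 4 and 7 members in med8med25, 2 and 5 other beta-glucosidases in hac1hac5 and 3 and 7 in med8med25, 4 and 9 ER body genes in hac1hac5 and 2 and 5 in med8med25, 1 and 4 specifier genes, 0 and 4 PEN2 pathway genes and 0 and 3 myrosin cell genes in med8med25, and 1 and 3 myrosin cell genes between the mutants. With the replicate number as a block, 8234, 5357 and 9004 genes were called in the 3 comparisons, with 7, 7 and 6 members, and no member gained or lost a call. The numbers share no stated origin, and deviations of same-numbered libraries correlated at -0.0177, -0.147 and -0.249 between genotypes over 16430 genes. Depth limits BGLU34 and BGLU35 most, at 23 to 100 reads in hac1hac5.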
